A study of Homo sapiens with 15 samples.

Results

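The genes described here are 36 amino acid transporters and genes of the ATF4 stress programme, chosen by symbol from a list: 5 transcription factors, 5 stress effectors, 6 enzymes of amino acid and one-carbon metabolism, 3 tRNA synthetases and 17 transporters of the SLC families. Of these, 35 had a row among the 17769 genes with an identifier in the knockout table, and all 35 passed the filter on low values, SLC36A4 through its HSP90α-KO libraries alone. All 36 had a row among the 60510 genes of the resistance table, and 35 passed. SLC7A3, a cationic amino acid transporter, had no row in the knockout table and 0 reads in each library of the other, so it was not tested.

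The study asked what the cytosolic chaperones HSP90α and HSP90β each do in K562, a BCR-ABL1-positive line from chronic myeloid leukemia, and how such cells come to tolerate PU-H71, a purine-scaffold HSP90 inhibitor. The knockout table held 3 libraries each of empty vector cells (EV, genotype WT), HSP90α-KO and HSP90β-KO cells, all untreated. Per the labels, a lentivirus had brought Cas9 and a guide RNA into these cells, which were sorted on a fluorescent marker and then grown from single cells. The resistance table held 3 libraries of parental cells (WT, long-term DMSO) and another 3 of resistant cells (PUHr, WT, long-term PU-H71). Resistant cells were derived under rising amounts of the drug and were also selected as single clones, and the DMSO cells were carried alongside. How many clones stand behind each group is not stated. The study calls the replicates independent, but does not say whether that means separate cultures, so the p-values measure the spread between these libraries, which may in part be technical. Whether PU-H71 was still in the medium of the PUHr cells when RNA was taken is not given in the sources used here, so acute exposure and the resistant state cannot be told apart. The knockout and resistance tables were normalized separately and share no library.

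ATF4 is the transcription factor at the centre of the integrated stress response. Kinases that sense amino acid shortage, misfolded protein in the endoplasmic reticulum, heme shortage or viral RNA phosphorylate the initiation factor eIF2, which lowers general protein synthesis while raising translation of the ATF4 mRNA. ATF4 then pairs with C/EBP proteins on composite DNA elements and switches on genes for amino acid uptake, amino acid synthesis and tRNA charging, and, when the stress lasts, for growth arrest and cell death. The level of the ATF4 mRNA does not measure the ATF4 protein, since much of its control is at translation.

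The composite element was searched in the promoter windows that RefSeq gives for GRCh38.p14, from 250 bases before to 50 after a start site, as the letters TGATGNAA on either strand, where the other strand reads TTNCATCA. Windows were held for 32 of the 36 members. Of their 56 windows 10 (17.9%) held the letters, against 1270 of 35116 windows of all genes (3.62%). The list was drawn up as ATF4 targets and transporters known to respond to amino acid supply, so the share describes how these genes are known and is no test. The 10 matches are shown 5′ to 3′ on the strand of the gene. The search fixed every letter but N, so their likeness was set by the search. Whether any match is a working element was not tested. The capitals mark the match, and positions count from the RefSeq start site.

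CEBPG (chr19:33374071-33374078, at −42, in an intron of the GENCODE models): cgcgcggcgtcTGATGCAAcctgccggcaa
CHAC1 (chr15:40953262-40953269, at −209, UTR): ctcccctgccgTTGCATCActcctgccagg
ASNS (chr7:97872469-97872476, at −68, UTR): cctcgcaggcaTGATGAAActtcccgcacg
GARS1 (chr7:30594845-30594852, at −33, UTR): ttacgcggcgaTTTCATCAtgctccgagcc
AARS1 (chr16:70289686-70289693, at −187, UTR): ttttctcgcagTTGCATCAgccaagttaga
SLC38A1 (chr12:46266513-46266520, at −4, intron): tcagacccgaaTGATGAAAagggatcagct
SLC1A4 (chr2:64989392-64989399, at −7, UTR): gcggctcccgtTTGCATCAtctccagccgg
SLC1A5 (chr19:46784904-46784911, at −97, UTR): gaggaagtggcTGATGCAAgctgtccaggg
SLC3A2 (chr11:62881736-62881743, at 38, coding sequence): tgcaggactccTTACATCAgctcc
SLC7A1 (chr13:29595674-29595681, at 8, UTR): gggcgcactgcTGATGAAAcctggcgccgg

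ASNS, whose element is the textbook example, shares the same 8 letters with SLC38A1, SLC7A1 and, read on the other strand, GARS1. SLC38A1 is the member whose level moved most in these data, and 270 bases around the start site nearest to its match are shown for that reason (chr12:46266497-46266766, minus strand, 250 bases before the start site and 20 after it). It has 2 windows, and the other held no match.

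SLC38A1: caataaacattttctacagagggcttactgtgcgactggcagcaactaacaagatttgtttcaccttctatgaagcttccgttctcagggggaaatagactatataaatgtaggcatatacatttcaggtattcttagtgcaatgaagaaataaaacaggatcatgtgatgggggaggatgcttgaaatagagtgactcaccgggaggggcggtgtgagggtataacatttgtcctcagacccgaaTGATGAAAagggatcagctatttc

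Libraries held between 19594381 and 26216730 reads on genes. The chi-square per degree of freedom between libraries of a group, which is 1 for counting error alone, was 1.15 to 3.86. Levels are given as CPM, the reads of a gene scaled to a library size that the authors' normalization adjusted, with the SD over 3 libraries, and differences as log2 fold changes from limma on the deposited log2 CPM values. The targeted genes were checked first. HSP90AA1, which encodes HSP90α, was at 704 ± 18.7 CPM in EV, 90.4 ± 2.34 in HSP90α-KO and 1206 ± 14.2 in HSP90β-KO. HSP90AB1, which encodes HSP90β, was at 2806 ± 21.1 CPM in EV, 3307 ± 38.8 in HSP90α-KO and 1913 ± 25.1 in HSP90β-KO. Its transcript thus remained in HSP90β-KO cells, for which the paper reports loss of HSP90β, with Western blots and Sanger sequencing of the clones. HSP90AA1 was lower in PUHr than in parental cells, at 1568 ± 21.0 against 1712 ± 14.1 CPM (log2 fold change -0.13, adjusted p = 4.71e-05). HSP90AB1 was also lower there, at 3847 ± 98.1 against 4531 ± 42.0 CPM (-0.24, adjusted p = 1.91e-07). By Western blot, the paper reports more HSP90α protein in PUHr than in parental cells after re-treatment with PU-H71. It also reports an acquired copy number gain that includes HSP90AA1, and a missense variant in that gene. The values here are RNA and do not measure the protein. The erythroid genes that K562 carries summed to 1135 to 1154 CPM in EV, 903 to 925 in HSP90α-KO and 978 to 1013 in HSP90β-KO (13 of 14 genes in the table), and to 3012 to 3052 in parental and 2409 to 2499 in PUHr (14 genes). Lymphoid markers summed to 13.8 to 16.0 CPM in EV, 8.59 to 10.4 in HSP90α-KO, 22.6 to 25.3 in HSP90β-KO, 14.1 to 14.6 in parental and 10.1 to 10.8 in PUHr. Fibroblast and epithelial markers, mostly EPCAM, summed to 60.7 to 68.5 CPM over the knockout table, 84.7 to 87.2 in parental and 31.1 to 33.3 in PUHr, and megakaryocytic ones to 16.6 to 17.0 CPM in EV, 14.8 to 17.5 in HSP90α-KO, 11.6 to 12.2 in HSP90β-KO, 14.8 to 16.0 in parental and 10.4 to 12.4 in PUHr. MS4A1 of B cells, KRT5 of basal epithelium and GP1BB of platelets were at 0 reads throughout the resistance table. The erythroid and lymphoid sums separated the groups in every comparison with a control, the megakaryocytic sum separated HSP90β-KO from EV and PUHr from parental cells, and the fibroblast and epithelial sum separated PUHr from parental cells. Their part in the results was not tested. In bulk RNA, fewer cells that express a gene and less RNA of it per cell cannot be told apart.

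Loss of HSP90α was accompanied by higher RNA of SLC38A1, SLC38A2, SLC7A5, DDIT4, MTHFD2 and ATF4 itself, and by lower RNA of ATF5, VLDLR, SLC6A9, SLC7A11, SLC1A4 and ASNS. The members thus did not move as 1 programme. A gene is said to have risen or fallen where its adjusted p was under 0.05, and to have changed where its log2 fold change also passed 1 in size. Of the 35 members tested, 18 rose and 10 fell. Over all genes of this comparison 27.5% rose and 26.6% fell. With quantile normalization the members split into 17 and 14. The median log2 fold change was 0.11 over the members and -0.01 over all tested genes. SLC38A1 changed, upward, beside 10.3% of all genes. SLC36A4 also passed both limits, but no library outside HSP90α-KO reached the filter, so it was tested only because it is high there and its call has no weight. Without it 17 of 34 members rose and 10 fell.

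SLC38A1 (chr12:46183063-46270017), a sodium-coupled carrier of glutamine and other small neutral amino acids also called SNAT1, had the largest difference among the members. Its level was 10.6, 10.4 and 11.1 CPM in the EV libraries. In HSP90α-KO it was 120.4, 124.2 and 122.4 CPM, and in HSP90β-KO 0.24, 0 and 0.08 CPM. The 3 groups are fully apart: all HSP90α-KO libraries lie far above EV, and HSP90β-KO is close to empty. The rise in HSP90α-KO was 3.50 on the log2 scale (SE 0.24, adjusted p = 1.21e-12). Its reads, 7247 against 730, gave a ratio of 11.4 with a counting interval of 10.6 to 12.3. In HSP90β-KO it rested on 5, 0 and 2 reads, a ratio to EV of 0.00936 with a counting interval of 0.00375 to 0.0194 (adjusted p = 7.05e-17). Such intervals cover counting error only. The fitted log2 value of that fall, -5.97, depends on the prior count the authors added. Over its 40 nearest tested genes the median was 0.22 in HSP90α-KO and -0.13 in HSP90β-KO.

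**Figure D1:**
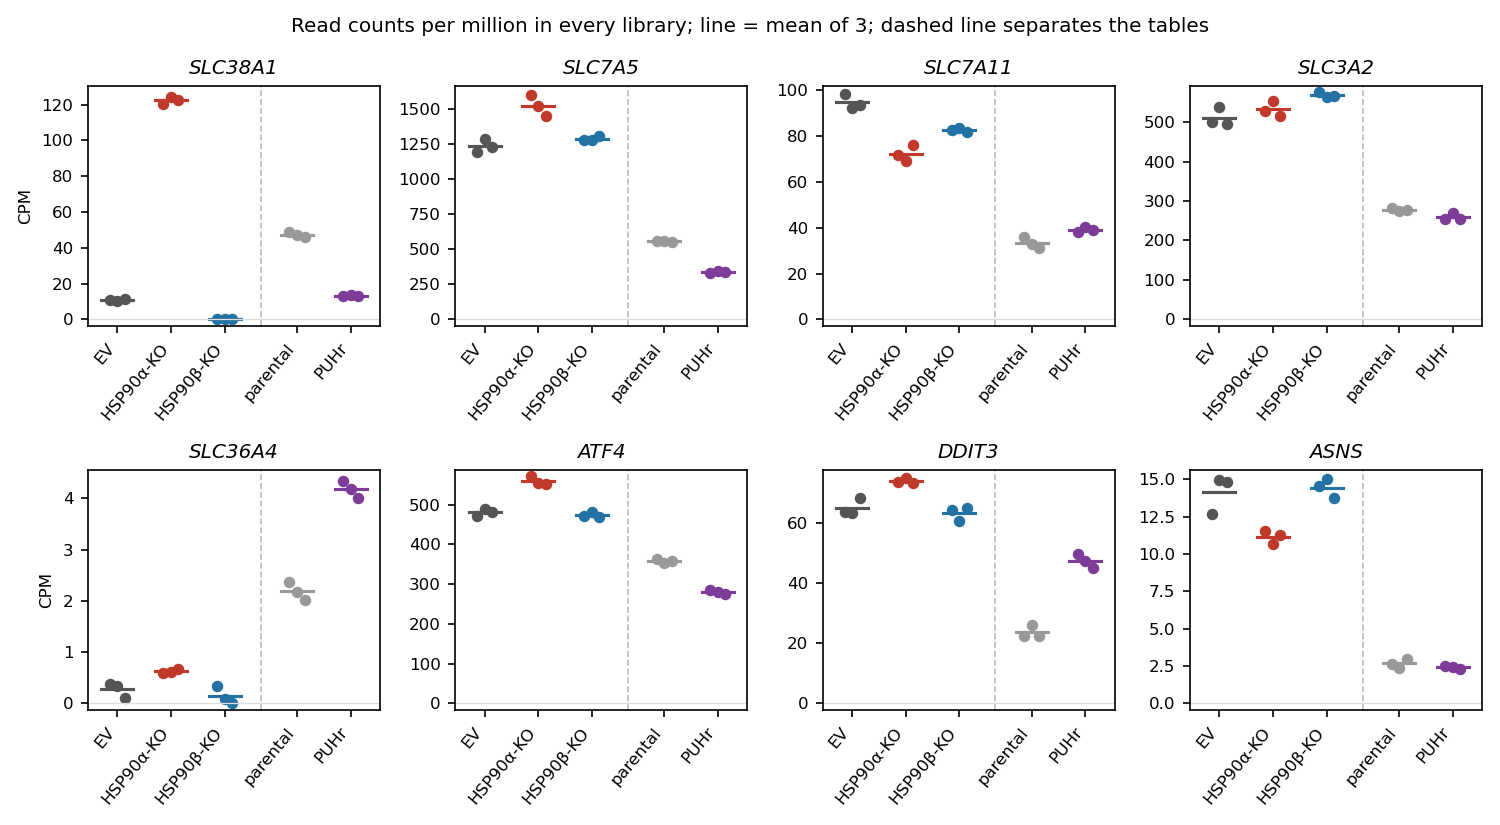
Levels of 8 members in each of the 15 libraries, in CPM (linear axes that include 0), with points for libraries and a line for the mean of 3. The dashed line separates the 2 tables, which were normalized separately. SLC38A1 sits at 120.4 to 124.2 CPM in HSP90α-KO and at most 0.24 CPM in HSP90β-KO, and falls from 45.9 CPM or more in parental cells to 13.5 or less in PUHr.

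SLC36A4 (chr11:93144174-93197991), a high-affinity carrier of proline and tryptophan, was near the limit of detection in the knockout table. It had 8, 7 and 3 reads in EV, 12, 12 and 13 in HSP90α-KO, and 7, 2 and 0 in HSP90β-KO. The HSP90α-KO libraries were the highest without overlap, at 0.59 to 0.67 CPM against 0.11 to 0.38 in EV. The reads gave a ratio to EV of 2.36 with a counting interval of 1.31 to 4.40. These values are a description with no test, for the reason given above.

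Among the transcription factors, ATF4 (chr22:39519695-39522683) was at 472, 488 and 482 CPM in EV. In HSP90α-KO it was at 572, 555 and 553 CPM, above every EV library. In HSP90β-KO it was at 472, 482 and 470 CPM, within the EV range or just below it. The rise in HSP90α-KO was 0.22 (SE 0.03, adjusted p = 1.46e-07), where its 40 nearest tested genes had a median of 0.14, and no difference passed the test in HSP90β-KO (log2 fold change -0.02, adjusted p = 0.638). DDIT3 (chr12:57516588-57521737), which encodes the pro-apoptotic factor CHOP, was at 63.7, 63.6 and 68.4 CPM in EV, 73.7, 75.2 and 73.3 in HSP90α-KO, and 64.6, 60.9 and 65.1 in HSP90β-KO. Its rise of 0.18 in HSP90α-KO passed the test (adjusted p = 0.00049). CEBPB rose in HSP90α-KO (0.27) and CEBPG, another C/EBP partner of ATF4, fell (-0.12). ATF5 (chr19:49928702-49933935), a relative of ATF4 that is likewise controlled at translation, was lower in both knockouts, at 269 to 283 CPM in EV, 145 to 162 in HSP90α-KO and 138 to 141 in HSP90β-KO. Its log2 fold changes were -0.87 and -0.99.

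The stress effectors split. DDIT4, an inhibitor of mTORC1 signalling also called REDD1, went from 141 ± 5.96 to 195 ± 12.0 CPM in HSP90α-KO (log2 fold change 0.47, adjusted p = 9.78e-11), and CHAC1, a glutathione-degrading enzyme, rose by 0.19. SESN2, a leucine-binding regulator of mTORC1, fell by 0.25, and VLDLR, a lipoprotein receptor, fell by 0.95 from a low level of 6.26 ± 0.545 CPM. TRIB3, a pseudokinase that feeds back on ATF4, did not pass in HSP90α-KO (log2 fold change -0.07, adjusted p = 0.0554).

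Among the enzymes, MTHFD2 of mitochondrial one-carbon metabolism rose by 0.42 in HSP90α-KO, from 359 ± 5.60 to 481 ± 9.17 CPM, and PSAT1 of serine synthesis by 0.17 (0.10 with quantile normalization). ASNS (chr7:97851677-97872542), asparagine synthetase, was at 12.6, 14.9 and 14.8 CPM in EV and 11.5, 10.7 and 11.2 in HSP90α-KO. HSP90β-KO stood at 14.5, 15.0 and 13.7 CPM, within the EV range apart from 1 library just above it. The fall in HSP90α-KO was -0.34 (adjusted p = 0.000613). The value of ASNS is uncertain, since 49.3% of its exon bases are also annotated to ENSG00000284707, a noncoding gene on the same strand. The serine enzymes PHGDH and PSPH and the one-carbon enzyme SHMT2 did not pass, at log2 fold changes of -0.06, -0.09 and -0.06. Of the tRNA synthetases, AARS1 and WARS1 rose by 0.13 and 0.11, which became 0.06 and -0.0155 with quantile normalization, and GARS1 did not pass (0.04).

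Of the 15 transporters tested in HSP90α-KO besides SLC36A4, 8 rose and 5 fell. SLC7A5 (chr16:87830023-87869507) and SLC3A2 (chr11:62856004-62888880) form the LAT1 heterodimer, which takes up leucine and other large neutral amino acids. SLC7A5 was at 1194, 1288 and 1226 CPM in EV and 1601, 1521 and 1450 in HSP90α-KO, with no overlap (log2 fold change 0.30, adjusted p = 1.06e-08). With quantile normalization its log2 fold change shrank to 0.11 (adjusted p = 0.0106). In HSP90β-KO it was at 1276, 1278 and 1309 CPM, which did not pass (0.06, adjusted p = 0.163). SLC3A2 showed the opposite arrangement. It was at 500, 537 and 496 CPM in EV, 529, 554 and 515 in HSP90α-KO and 576, 563 and 566 in HSP90β-KO, and only the last group lay clear of EV. Its log2 fold change was 0.06 in HSP90α-KO (adjusted p = 0.119) and 0.15 in HSP90β-KO (adjusted p = 0.000415).

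SLC38A2, the amino-acid-responsive relative of SLC38A1 next to it on chromosome 12 (chr12:46358188-46372773), rose by 0.47 in HSP90α-KO, from 324 ± 10.6 to 447 ± 9.03 CPM. The cationic carrier SLC7A1 rose by 0.23 and the glutamine carrier SLC1A5 by 0.14, or 0.15 and 0.08 with quantile normalization. Rises were also seen for the lysosomal arginine sensor SLC38A9 (0.25) and the branched-chain amino acid carriers SLC43A1 (0.24) and SLC43A2 (0.27). The 40 nearest tested genes of SLC43A1, SLC1A5 and SLC38A9 had medians of 0.34, 0.11 and 0.14 in the same direction. In the other direction, SLC7A11 (chr4:138164097-138242349), the light chain of the cystine/glutamate exchanger, was at 98.6, 92.3 and 93.6 CPM in EV, 71.8, 69.4 and 76.0 in HSP90α-KO, and 82.7, 83.7 and 81.9 in HSP90β-KO. Both knockouts lie below every EV library, HSP90α-KO lowest, with log2 fold changes of -0.39 (adjusted p = 3.97e-09) and -0.20 (adjusted p = 0.000314). The glycine carrier SLC6A9 fell by 0.73 in HSP90α-KO, from 93.5 ± 1.94 to 56.3 ± 3.94 CPM. SLC1A4, a carrier of alanine, serine and cysteine, fell by 0.34, SLC7A6 of the system y+L by 0.31 and the glutamine carrier SLC38A5 by 0.15. The proton-coupled carrier SLC36A1 did not pass (0.09). Of the smaller calls in HSP90α-KO, CEBPG was lost without EV replicate 1 or HSP90α-KO replicate 2 (adjusted p up to 0.052), and SLC43A2 without EV replicate 2 or 3, HSP90α-KO replicate 1 or 3, or HSP90β-KO replicate 3 (adjusted p up to 0.231).

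**Figure D2:**
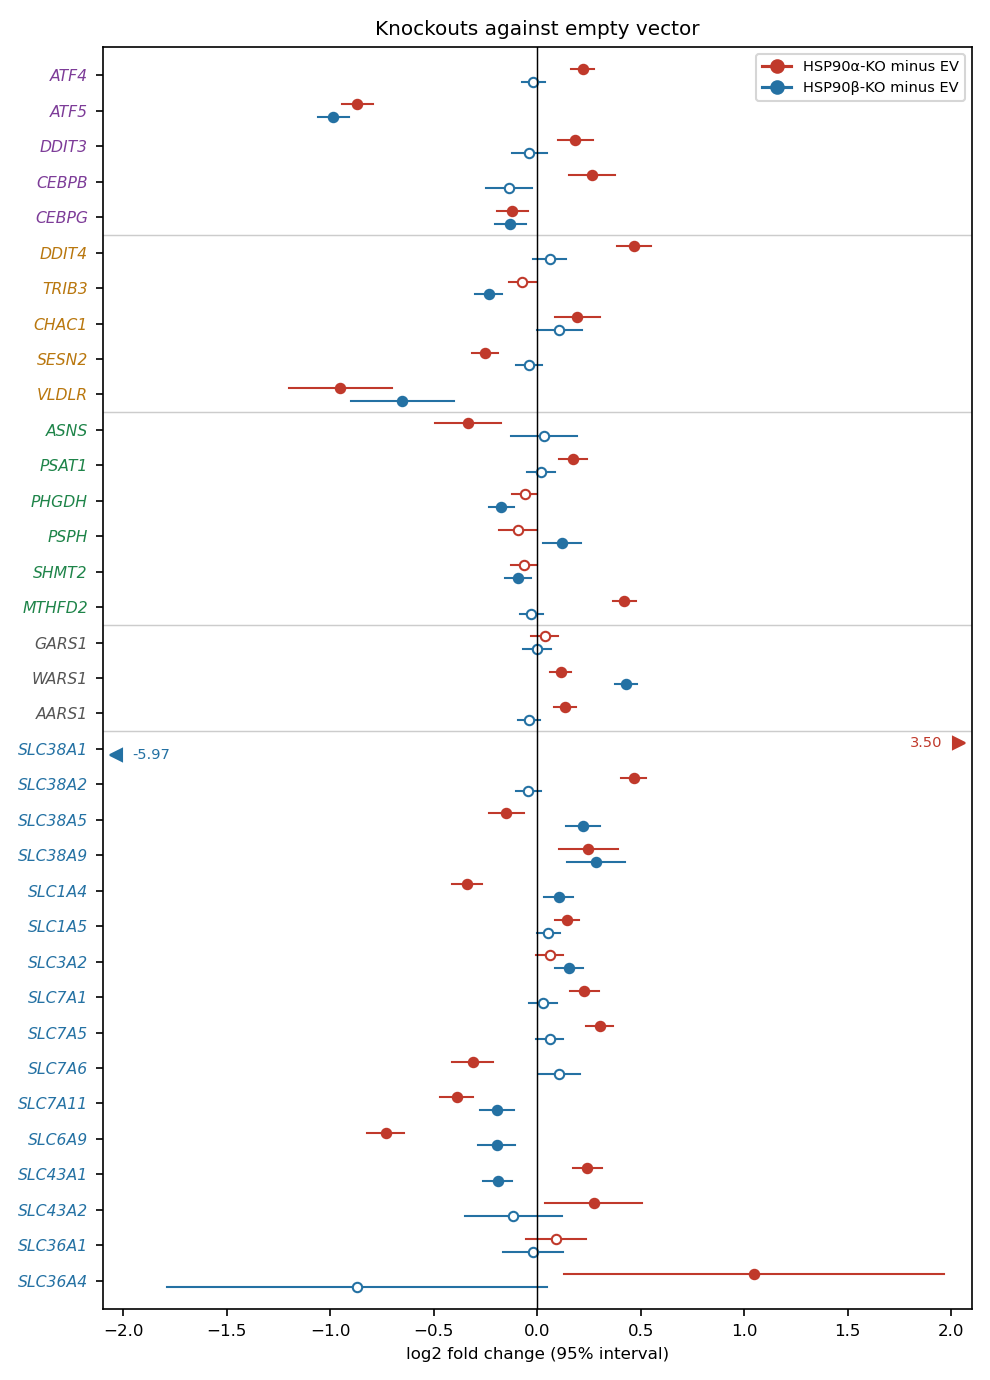
Log2 fold changes of the 35 tested members in each knockout against EV, with 95% intervals from limma; filled points passed the test at an adjusted p under 0.05 and open points did not. Label colours mark the classes, from transcription factors at the top to transporters at the bottom. The values of SLC38A1, 3.50 and -5.97, lie outside the axis and are shown by arrows, SLC36A4 is drawn although it was tested only through HSP90α-KO, and ATF5 and VLDLR stand to the left in both knockouts.

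Fewer members moved in HSP90β-KO, where 6 rose, 10 fell and 19 did not pass. With median centring the split was 4 and 14. Over all genes of this comparison 17.2% rose and 17.2% fell. The median log2 fold change was -0.03 over the members and 0.00 over all tested genes, and 1 member changed, SLC38A1, beside 4.48% of all genes. No transcription factor and no stress effector rose. Besides ATF5, those that fell were CEBPG (-0.13), TRIB3 (-0.23, from 342 ± 14.1 to 291 ± 2.89 CPM) and VLDLR (-0.65). The largest rise was that of WARS1 (chr14:100333790-100376805), tryptophanyl-tRNA synthetase, from 1026 ± 9.59 to 1381 ± 4.08 CPM (log2 fold change 0.43, adjusted p = 2.38e-13). Its 40 nearest tested genes on chromosome 14 had a median of 0.51 in the same comparison. HSP90AA1, on the same chromosome, was 0.78 higher, and its own 40 nearest tested genes had a median of 0.56. The paper's SNP array of HSP90β-KO cells found no alteration at the HSP90AA1 locus. The part of the neighbourhood in the rise of WARS1 was not tested.

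Among the enzymes in HSP90β-KO, PHGDH and SHMT2 fell by 0.17 and 0.09, PSPH rose by 0.12, and ASNS, PSAT1 and MTHFD2 did not pass, at log2 fold changes of 0.03, 0.02 and -0.03. Among the transporters, SLC38A9, SLC38A5, SLC3A2 and SLC1A4 rose by 0.29, 0.22, 0.15 and 0.10, and the 40 nearest tested genes of SLC3A2 had a median of 0.10. SLC38A1, SLC6A9, SLC7A11 and SLC43A1 fell, the last by 0.19. SLC36A4 gave a ratio of reads to EV of 0.488 with a counting interval of 0.193 to 1.14. Calls lost on leaving out a library were those of CEBPG (EV replicate 1, adjusted p = 0.0511), SHMT2 (EV replicate 2 or HSP90β-KO replicate 3, adjusted p up to 0.0857), SLC1A4 (EV replicate 1 or 3, or HSP90β-KO replicate 1 or 3, up to 0.0959) and PSPH (any EV library or HSP90β-KO replicate 3, up to 0.223).

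Both knockouts were set against the same EV libraries, so they were also compared with each other. The direct contrast passed the test for 29 of 35 members, beside 59.9% of all genes. Of the 29, 18 were higher in HSP90α-KO and 11 were higher in HSP90β-KO. The split was 14 and 13 with quantile normalization, and 21 and 9 with median centring. Without SLC36A4, which entered this contrast too only through HSP90α-KO, 17 and 11 of 34 differed. Of the 5 transcription factors, 4 were higher in HSP90α-KO: CEBPB by 0.40, ATF4 by 0.24 (adjusted p = 2.6e-08), DDIT3 by 0.22 and ATF5 by 0.12. With quantile normalization ATF4 differed by 0.11 (adjusted p = 0.000385) and ATF5 no longer passed (0.06, adjusted p = 0.128). Among transporters, the log2 difference was 9.48 for SLC38A1 (adjusted p = 4.09e-22, a size set in part by the prior count). SLC38A2 was 0.51 higher in HSP90α-KO, where its 40 nearest tested genes had a median of 0.46, SLC43A1 0.43 higher (neighbours 0.38) and SLC7A5 0.24 higher (0.04 with quantile normalization, adjusted p = 0.309). MTHFD2 and DDIT4 were 0.45 and 0.41 higher in HSP90α-KO.

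Members higher in HSP90β-KO than in HSP90α-KO were led by SLC6A9 (log2 difference, HSP90α-KO less HSP90β-KO, -0.54), SLC1A4 (-0.44), SLC7A6 (-0.42), SLC38A5 (-0.37), ASNS (-0.37) and WARS1 (-0.32, or -0.49 with quantile normalization). ASNS was tested in this contrast with the same overlap in annotation as above. In this contrast the 40 nearest tested genes had a median of the member's own sign and at least 50% of its size for 8 of the 29 members that passed. Besides SLC38A2 and SLC43A1 these were ATF4 (0.19), SLC1A5 (0.11), WARS1 (-0.45), SLC3A2 (-0.18), SLC7A11 (-0.18) and VLDLR (-0.17). Against EV this held for 4 of 28 in HSP90α-KO and 2 of 16 in HSP90β-KO, and its part in the results was not tested. CEBPG, CHAC1, SHMT2, GARS1, SLC38A9 and SLC36A1 did not differ past the test. The differences of ATF5 (without HSP90α-KO replicate 1, adjusted p = 0.0871), SLC3A2 (without HSP90α-KO replicate 3 or HSP90β-KO replicate 1, up to 0.0628) and VLDLR (without HSP90α-KO replicate 1 or 3, or HSP90β-KO replicate 1 or 2, up to 0.131) were lost when those libraries were left out. Median centring also lost the differences of SLC3A2 (-0.05, adjusted p = 0.172) and VLDLR (-0.26, adjusted p = 0.0731), and limma-voom on the recovered reads that of VLDLR (adjusted p = 0.0665).

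In PUHr cells most of the enzymes, all 3 synthetases and most transporters were lower than in parental cells, while DDIT3, SESN2 and SLC36A4 were higher. Of the 35 members tested, 20 fell, 8 rose and 7 did not pass. Over all genes of this comparison 25.8% fell and 25.6% rose. The median log2 fold change was -0.21 over the members and 0.00 over all tested genes. Only SLC38A1 changed, beside 10.1% of all genes.

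ATF4 was at 363, 353 and 358 CPM in parental cells and 284, 280 and 275 in PUHr, without overlap (log2 fold change -0.36, SE 0.03, adjusted p = 9.05e-09). DDIT3 went the other way, from 22.6, 26.0 and 22.6 CPM to 49.8, 47.3 and 45.2 CPM. Its log2 fold change was 1.00 (SE 0.06, 95% interval 0.87 to 1.12, adjusted p = 2.8e-09), just short of the 2-fold limit. Without parental replicate 2 or PUHr replicate 3 it was 1.07 or 1.03 and passed that limit. ATF5 fell by 0.22, from 40.8 ± 0.908 to 35.1 ± 1.14 CPM, and CEBPB and CEBPG did not pass (0.21 and 0.05). SESN2 rose from 103 ± 4.26 to 149 ± 4.17 CPM (log2 fold change 0.53, adjusted p = 8.56e-09), DDIT4 rose by 0.20 and TRIB3 fell by 0.14. CHAC1 and VLDLR, at means of 3.73 and 0.704 CPM in parental cells, did not pass (-0.32 and -0.44).

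Of the 6 enzymes 5 fell in PUHr, and the median over the 6 was -0.40. PSAT1 fell from 67.4 ± 0.484 to 40.6 ± 2.42 CPM (log2 fold change -0.73, adjusted p = 2.82e-09) and MTHFD2 from 187 ± 0.611 to 127 ± 0.232 CPM (-0.56, adjusted p = 1.15e-10). PHGDH, which makes the substrate that PSAT1 uses, fell by 0.53, PSPH, which completes serine synthesis, by 0.27, and SHMT2, which splits serine to glycine, by 0.13 (0.08 with quantile normalization). All the steps of the serine pathway among the members were therefore lower. ASNS was low in both groups, at 2.66, 2.39 and 3.00 CPM in parental cells and 2.53, 2.47 and 2.27 in PUHr, and did not pass (log2 fold change -0.14, adjusted p = 0.454). The gene that shares its exon bases, ENSG00000284707, went from a mean of 0.467 to 1.85 CPM, and how reads in the shared bases were assigned was not tested. GARS1, WARS1 and AARS1 fell by 0.21, 0.18 and 0.23. The 40 nearest tested genes of GARS1 and of WARS1 had medians of 0.18 and 0.20, in the other direction. WARS1 is on the same chromosome as HSP90AA1, where the paper reports a copy number gain in PUHr cells. The 40 nearest tested genes of HSP90AA1 had a median of 0.21. The part of that gain in these values was not tested.

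**Figure D3:**
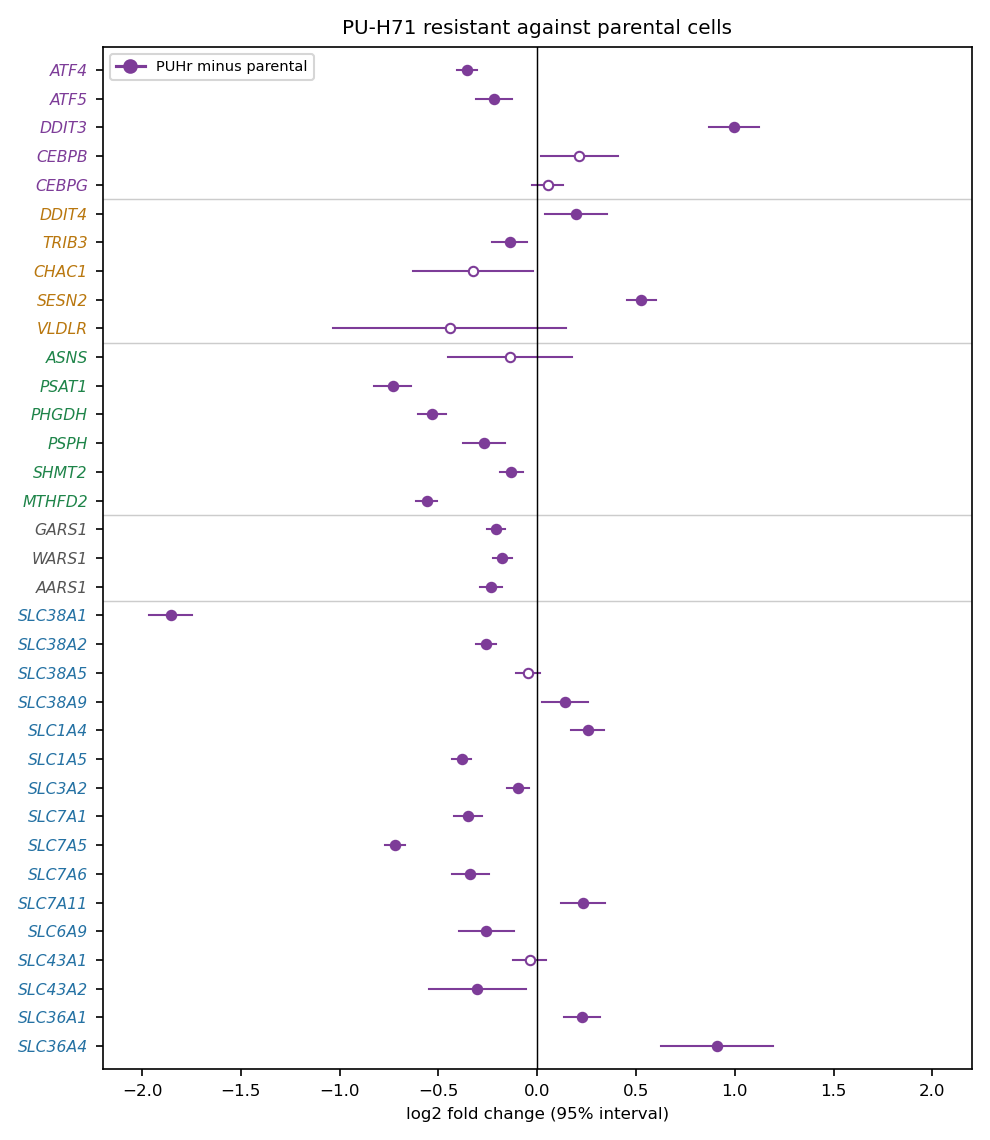
Log2 fold changes of the 35 tested members in PUHr against parental cells, with 95% intervals from limma; filled points passed the test and open points did not, and label colours mark the classes as in the plot of the knockouts. The enzymes and tRNA synthetases lie left of 0, DDIT3 and SLC36A4 stand at 1.00 and 0.91, and SLC38A1 at -1.85.

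Of the 16 transporters tested in PUHr, 9 fell and 5 rose. SLC38A1 was at 48.9, 47.3 and 45.9 CPM in parental cells and 12.8, 13.5 and 12.8 in PUHr, from 979 or more reads to 323 or fewer (log2 fold change -1.85, SE 0.05, 95% interval -1.96 to -1.75, adjusted p = 6.61e-13). The groups are far apart, and the 40 nearest tested genes had a median of 0.04. SLC7A5 fell from 561.8, 560 and 549 CPM to 332, 347 and 337 CPM (-0.72, adjusted p = 3.71e-12). Its partner SLC3A2 went from 282, 276 and 278 CPM to 256, 270 and 255 CPM (-0.10, adjusted p = 0.0065), which did not pass with quantile normalization (-0.06, adjusted p = 0.0738). SLC1A5, SLC7A1, SLC7A6, SLC38A2 and SLC6A9 fell by 0.38, 0.35, 0.34, 0.26 and 0.26, and SLC43A2 by 0.30.

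The transporters that rose in PUHr were SLC36A4, SLC1A4, SLC7A11, SLC36A1 and SLC38A9. SLC36A4 was at 2.37, 2.18 and 2.02 CPM in parental cells and 4.34, 4.18 and 4.0 in PUHr, here with 43 or more reads in each library (log2 fold change 0.91, adjusted p = 4.06e-05). SLC7A11 was at 35.9, 32.9 and 31.3 CPM and 38.4, 40.1 and 39.0 CPM, also without overlap (0.23, adjusted p = 0.00154). Its 40 nearest tested genes had a median of 0.19, and of the 28 members that passed in PUHr it was the 1 whose neighbours had its sign and at least 50% of its size. SLC1A4 and SLC36A1 rose by 0.26 and 0.23, and SLC38A9 by 0.14. SLC38A5 and SLC43A1 did not pass (-0.05 and -0.04). The calls of DDIT4 (each library except PUHr replicate 1, adjusted p up to 0.181), TRIB3 (parental replicate 2, 0.0703), SLC38A9 (parental replicate 2 or any PUHr library, up to 0.191) and SLC43A2 (parental replicate 1 or 3, PUHr replicate 1 or 3, up to 0.143) were lost when the library named was left out.

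The knockout and resistance tables share no library, so members can be sorted by 1 and counted in the other, as a description with no test. Of the 18 members that rose in HSP90α-KO, 11 fell in PUHr (61.1%) and 4 rose (22.2%), beside 36.4% and 25.7% of all genes that rose in HSP90α-KO. These 11 include SLC38A1, SLC38A2, SLC7A5, SLC7A1, SLC1A5, MTHFD2, PSAT1 and ATF4. The 4 that rose in both are DDIT3, DDIT4, SLC38A9 and SLC36A4, the last with the limit given above. Of the 10 that fell in HSP90α-KO, 3 rose in PUHr (SESN2, SLC1A4 and SLC7A11), 3 fell (ATF5, SLC7A6 and SLC6A9) and 4 did not pass. These shares, 30% and 30%, stand beside 32.2% higher and 24.8% lower of all genes that fell in HSP90α-KO. Of the 7 that did not pass in HSP90α-KO, 6 fell in PUHr (85.7%), beside 21.1% of all such genes. Of the 10 members that fell in HSP90β-KO, 6 fell (60%) and 1 rose (10%) in PUHr, beside 36.1% and 25.4% of all genes that fell there. Of the 6 that rose in HSP90β-KO, 3 fell in PUHr (50%) and 2 rose (33.3%), beside 30.3% and 34.7% of all such genes. Of the 19 that did not pass there, 11 fell (57.9%) and 5 rose (26.3%), beside 22.7% and 21.8%. Differences between these shares were not tested.

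**Figure D4:**
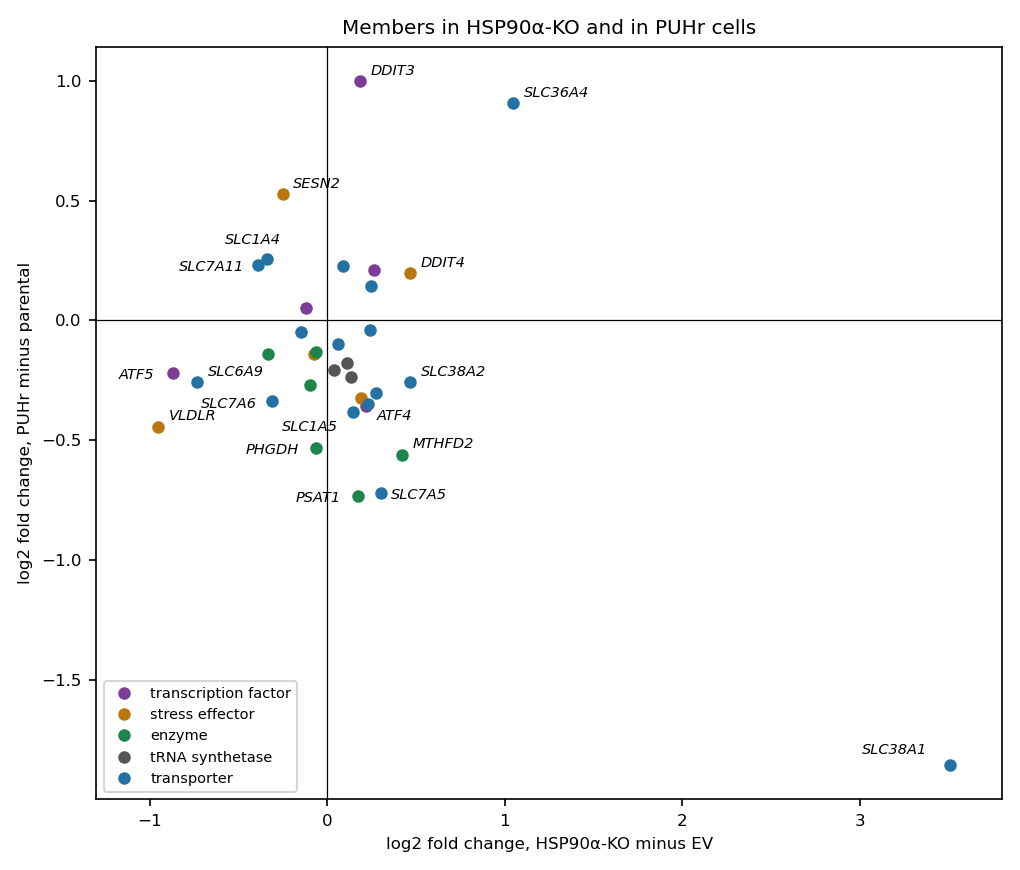
Each of the 35 tested members by its log2 fold change in HSP90α-KO against EV (horizontal) and in PUHr against parental cells (vertical), coloured by class. SLC38A1 stands apart at 3.50 and -1.85, SLC36A4 and DDIT3 are at the upper right, and SLC7A5, MTHFD2 and PSAT1 lie right of 0 and below it.

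Other genes of the same pathways, from lists of related genes, were counted in each comparison. In PUHr, 17 of 23 other ATF4 targets fell and 4 rose (median -0.23), and 12 of 17 other cytosolic tRNA synthetases fell and 3 rose (median -0.15), beside the 25.8% and 25.6% of all genes given above. ALDH1L2, a mitochondrial folate enzyme, was at 8.50 CPM in parental cells and 1.19 in PUHr (log2 fold change -2.77), NIBAN1 at 53.3 and 15.5 (-1.78) and JDP2, a repressor of AP-1 activity, at 3.76 and 1.70 (-1.10). GDF15, a stress cytokine, went the other way, from 45.8 to 102 CPM (1.14). In HSP90α-KO, 11 of 24 other ATF4 targets rose and 7 fell (median 0.05), and none changed. In HSP90β-KO 6 rose and 8 fell (median -0.03). Of the other synthetases, 4 of 17 rose and 2 fell in HSP90α-KO, and 2 rose and 4 fell in HSP90β-KO. The shares of all genes that rose and fell, beside which these and the following counts stand, were 27.5% and 26.6% in HSP90α-KO, 17.2% and 17.2% in HSP90β-KO, and 25.6% and 25.8% in PUHr.

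Among the genes for the eIF2 kinases, eIF2 and its exchange factor and phosphatases, 6 of 18 rose (33.3%) and 4 fell (22.2%) in HSP90α-KO, 4 rose (22.2%) and 3 fell (16.7%) in HSP90β-KO, and 2 rose (11.1%) and 8 fell (44.4%) in PUHr, with none changed in these comparisons. The genes by which mTORC1 senses amino acids gave 7 of 29 higher (24.1%) and 8 lower (27.6%) in HSP90α-KO, near the shares of all genes. They gave 5 (17.2%) and 3 (10.3%) in HSP90β-KO, and 8 (27.6%) and 12 (41.4%) in PUHr. SESN3, a sestrin, changed upward in all 3 comparisons: from 0.531 CPM in EV to 5.94 in HSP90α-KO (log2 fold change 3.33) and 5.25 in HSP90β-KO (3.15), which share the EV libraries, and from 6.92 CPM in parental cells to 34.3 in PUHr (2.31). Of 10 further serine, glycine and folate enzymes, 5 rose (50%) and 2 fell (20%) in HSP90α-KO, 1 rose (10%) and 2 fell (20%) in HSP90β-KO, and 3 rose (30%) and 2 fell (20%) in PUHr. GLDC of the glycine cleavage system went from 0.657 CPM in parental cells to 0 reads in PUHr, at least 5.19-fold lower against 3 reads per library. It was tested only through the parental libraries, and without it 3 of 9 rose (33.3%) and 1 fell (11.1%) in PUHr.

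Other amino acid transporters did not share 1 direction. In HSP90α-KO 5 of 15 rose (33.3%) and 6 fell (40%), in HSP90β-KO 3 rose (20%) and 4 fell (26.7%), and in PUHr 7 of 14 rose (50%) and 5 fell (35.7%). SLC16A10 and SLC6A15 passed the filter only through HSP90α-KO and SLC1A3 only through parental cells. Without them 3 of 13 rose in HSP90α-KO, 3 of 13 fell in HSP90β-KO (23.1%), and 4 of 13 fell in PUHr. SLC16A10, a carrier of aromatic amino acids, was at 7.96 CPM in HSP90α-KO and at no more than 2 reads in any EV library, at least 59.5-fold higher against 3 reads per library, and SLC6A15 was at least 7.04-fold higher. SLC7A8, the LAT2 light chain, was 1.00 higher in HSP90α-KO (55.9 against 27.8 CPM) and 1.41 higher in PUHr (127 against 47.7 CPM). SLC7A2, a cationic carrier, was 1.78 lower in HSP90α-KO (1.75 against 6.20 CPM) and 1.24 higher in PUHr (79.5 against 33.5 CPM). SLC6A19 changed downward in HSP90β-KO, from 3.15 to 0.842 CPM (-1.80), and SLC1A3, a glutamate carrier, went from 1.07 CPM in parental cells to 0 reads in PUHr, at least 8.45-fold lower.

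**Figure D5:**
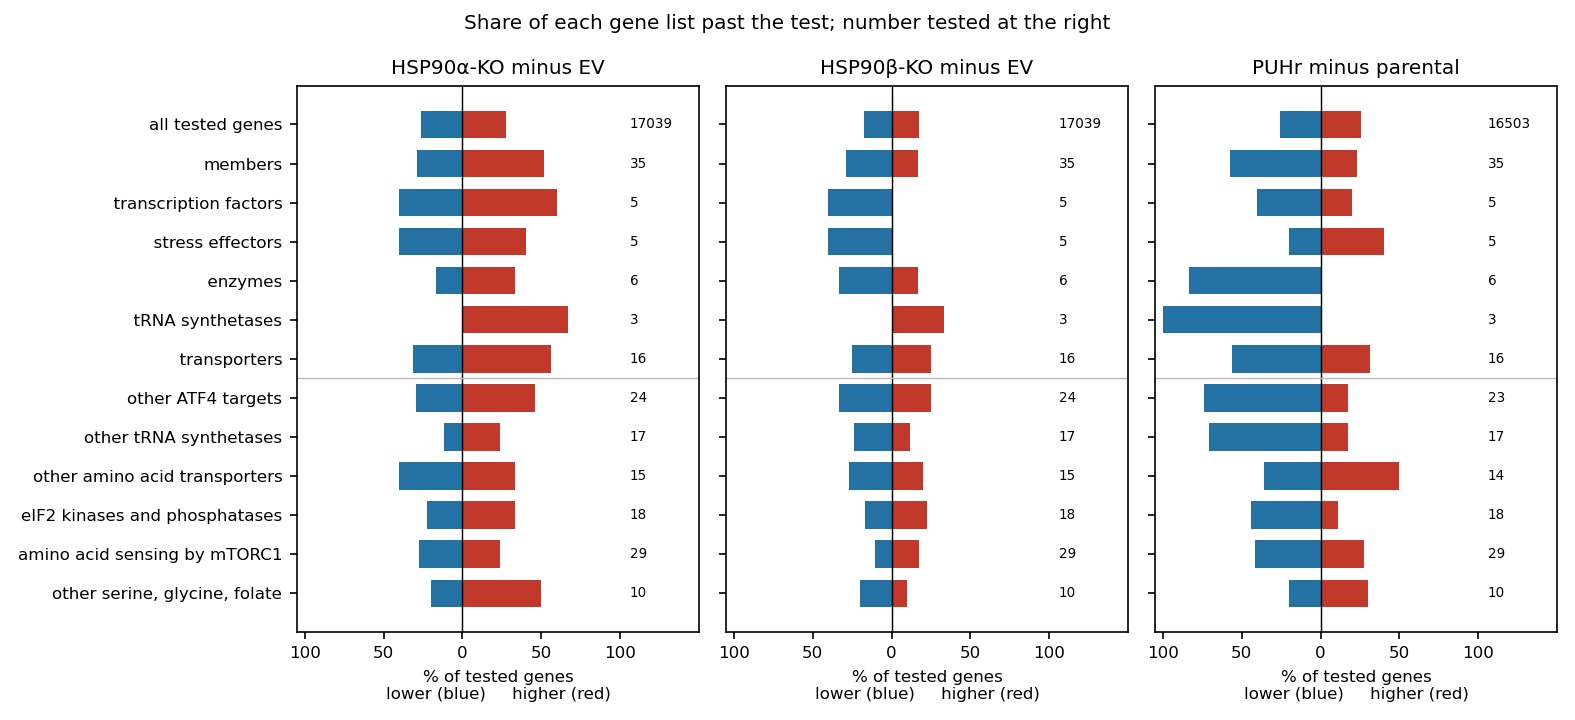
Share of the tested genes of each list that rose (red, right) or fell (blue, left) in each comparison, with the number tested at the right of each panel; the upper block holds all genes, the members and their classes, the lower block the related genes. The members' bars in HSP90α-KO include SLC36A4. In PUHr the blue bars of the enzymes, tRNA synthetases and other ATF4 targets are the longest, and in HSP90α-KO the red bar of the members (51.4%) exceeds that of all genes (27.5%).

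Some members share exon bases with a gene on the other strand, and the strand setting of the counting is not given in the sources used here, so their reads cannot be fully told apart from those of their partners. Those with more than 10% of their exon bases shared are SLC7A6 with SLC7A6OS (44.4% of its exon bases), DDIT3 with MARS1 (27.2%), SLC1A5 with ENSG00000275719 (23.4%), ATF5 with NUP62 (19.5%), CEBPB with CEBPB-AS1 (12.6%) and MTHFD2 with SLC4A5 (11.6%). Smaller overlaps, of at most 9% with any 1 gene, were found for SLC7A11, SLC6A9, SHMT2, VLDLR, WARS1, SLC7A5, GARS1 and AARS1. NUP62 was at 108 CPM in EV, 123 in HSP90α-KO and 108 in HSP90β-KO, while ATF5 was at 277, 152 and 140. In PUHr both fell, NUP62 from 168 to 141 CPM (log2 fold change -0.25, adjusted p = 2.6e-06) and ATF5 from 40.8 to 35.1. MARS1 was at 367 CPM in parental cells and 405 in PUHr, and DDIT3 at 23.7 and 47.4.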

How the data were processed

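RNA of K562 cells was sequenced as single reads from a stranded mRNA library. Per the paper and the submitters' processing notes, the authors used STAR for alignment to GRCh38, featureCounts for counting per gene and edgeR for normalization. The authors deposited log2 CPM values, whose floor gives a prior count of 1.99. The values use adjusted library sizes, so a library's CPM sum to 0.972 to 1.03 times the nominal total. On the linear scale, less that floor, 100% of values came within 0.01 reads of a whole number, so whole reads were recovered from the deposited log2 values. Entries without an identifier (30 and 114, at most 0.0363% of reads) were left out, and 0 columns of samples were unused. Reads on genes were 19594381 to 26216730 per library.

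Genes that reached a log2 CPM of -1 in 3 or more libraries (17039 and 16503) were tested with limma 3.58.1 in R 4.3.3 (two-sided, eBayes with a trend on intensity), in 1 fit per table of 9 and 6 libraries, adjusted by Benjamini-Hochberg over all tested genes. The script was tested on simulated data. CPM values printed are the deposited values made linear less the floor. With 3 libraries against 3, an exact permutation test of 1 gene cannot go below 0.1. Groups with no library above 3 reads were taken to be at the floor. Values per library are given for members that changed in any comparison and for ATF4, DDIT3, ASNS, SLC7A11, SLC7A5 and SLC3A2; other members are given by means and fold changes. ENSG00000284707 and the partners on the other strand were named from the annotation (GENCODE v44, GRCh38). The members and gene lists were chosen with earlier results of these data known. Same-numbered replicates did not deviate together (correlations from -0.05 to 0.04), so no pairing was used. Alternatives were other filters, pseudocounts, scalings and variance models, limma-voom on the recovered reads, a replicate block, the compared libraries alone and each library left out.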

Additional observations from a re-analysis of the deposited data

How the results depend on the processing

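Of 696 fits of members under the alternatives for HSP90α-KO against EV, 662 kept direction and side of the threshold, as did 644 of 695 for HSP90β-KO against EV, 667 of 696 for the direct contrast and 519 of 559 for PUHr. The sign turned in 26 fits, of size 0.05 or less, where neither value passed. In the fits where 1 of the values passed, it turned with quantile normalization: WARS1 in HSP90α-KO (-0.0155) and, between the knockouts, PHGDH (-0.0186), SHMT2 (-0.126), GARS1 (-0.0696) and SLC1A5 (-0.0417). The number of members changed in HSP90α-KO, 2 with SLC36A4 counted, was 1 where a mean log2 CPM of at least 1 was required, with 1 CPM or 5 CPM added and with no intensity trend, each time because SLC36A4 dropped out. With median centring 2 members changed in HSP90β-KO, ATF5 joining at -1.03. PSPH and SLC1A4 in HSP90β-KO (adjusted p = 0.2 and 0.182 with median centring), SHMT2 there (0.252 with quantile normalization), and DDIT4 and SLC38A9 in PUHr (0.0869 and 0.16 with median centring) lost their calls under a scaling, as did the SLC3A2 and VLDLR differences between the knockouts given above. With no intensity trend, calls were also lost for CEBPG in both knockouts, PSPH, SHMT2 and SLC1A4 in HSP90β-KO, ATF5 and SLC3A2 between the knockouts, and DDIT4, TRIB3, SLC38A9 and SLC3A2 in PUHr (adjusted p from 0.0606 to 0.127). With no filter 5 members rose and 15 fell in PUHr, where 60510 genes were then tested. The rises of DDIT4, SLC38A9 and SLC7A11 and the falls of TRIB3, SHMT2, SLC3A2, SLC6A9 and SLC43A2 were lost (adjusted p from 0.0817 to 0.412). SLC43A2 in HSP90α-KO was lost with the 6 compared libraries alone (0.0541) and with the replicate block (0.055), PSPH in HSP90β-KO with the block (0.0505) and quantile normalization (0.0925), and VLDLR between the knockouts with the compared libraries alone (0.0571).

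Over each library left out, members changed ranged from 1 to 3 in HSP90α-KO, 1 to 2 in HSP90β-KO and 1 to 2 in PUHr. Members that rose ranged from 16 to 18, 4 to 6 and 6 to 8, members that fell from 10 to 12, 9 to 11 and 19 to 21, and members that differed between the knockouts from 26 to 29. Without EV replicate 1, VLDLR passed 2-fold in HSP90α-KO (-1.02) and ATF5 in HSP90β-KO (-1.01). Over all genes, those changed in HSP90α-KO fell from 1760 to 717 under that filter on the mean, 823 with 1 CPM added and 346 with 5 CPM added. The same settings gave 272, 289 and 90 against 764 in HSP90β-KO, and 751, 941 and 385 against 1660 in PUHr. The replicate block, for numbers that did not pair, gave 17 members higher and 10 lower in HSP90α-KO, 5 and 10 in HSP90β-KO, 9 and 20 in PUHr, 29 differing between the knockouts, and 2, 1 and 1 members changed. SLC36A4 in the knockout table and SLC38A1 in HSP90β-KO rest on 13 or fewer reads per library, which limits the size of their differences.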

Other observations

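The EV and parental cells are both WT controls of K562, but they come from tables normalized separately and were grown under different regimes, so their levels are set side by side with no test. Over 35 members the median log2 ratio of EV to parental CPM was 1.03, against -0.06 over 15735 genes tested in both tables. The ratio was above 1 for 18 members (51.4%), against 8% of all genes, and below -1 for 4 (11.4%), against 6.69%. CHAC1 was at 41.5 CPM in EV and 3.73 in parental cells, DDIT4 at 141 and 17.0, VLDLR at 6.26 and 0.704, ATF5 at 277 and 40.8, ASNS at 14.1 and 2.69, and PHGDH at 444 and 104. Those below -1 were SLC36A4 (0.277 and 2.19 CPM), SLC38A1 (10.7 and 47.4), SLC38A5 (58.4 and 138) and SLC36A1 (17.5 and 35.1), and SLC7A6 (log2 ratio -0.55) and SLC38A9 (-0.17) were also lower in EV. Culture, cloning, run and normalization cannot be told apart here. For SLC38A1 the EV mean lay close to the 13.0 CPM of PUHr, again across tables.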
